A study of Neurospora crassa with 10 samples.

Results

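The 4 genes described here encode proteins that handle iron in *Neurospora crassa*: the siderophore regulator *sre* (NCU07728), an ornithine monooxygenase (NCU07117), a siderophore peptide synthetase (NCU07119), and ferrochelatase (NCU08291). They were chosen by their annotated function, with earlier results of these data known, and they are 4 of the 9728 genes with a value. All 4 were among the 7688 genes that were tested, which are those with a mean above 1 FPKM (fragment numbers scaled to the length of the transcript, with the mapped reads of the library as the other scale) at 1 or more time points. The samples were mycelium of a wild-type strain, FGSC2489, grown in shaken liquid culture in darkness. The cultures were then harvested in the dark or lit with white fluorescent lamps, and taken after 15 min, 60 min, 120 min, and 240 min. With 2 replicate cultures for each of the 5 time points there were 10 samples. Polyadenylated RNA was isolated on oligo-dT cellulose for replicate 1 and with magnetic beads for replicate 2, so that effects of the isolation, of depth, and of the culture on a replicate cannot be told apart.

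Iron is poorly soluble in the presence of oxygen, and many fungi take it up with siderophores, small molecules that bind ferric iron tightly. *N. crassa* makes hydroxamate siderophores, coprogen for uptake and ferricrocin inside the cell. Their synthesis starts when an ornithine monooxygenase adds a hydroxyl group to the side chain nitrogen of ornithine. A nonribosomal peptide synthetase then joins the modified ornithine units, and a GATA-type repressor, which in *N. crassa* is SRE, holds the pathway down when iron is plentiful. Ferrochelatase uses iron at the other end of its route, where it inserts the ion into protoporphyrin in the mitochondrion and so completes heme.

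The replicates differed in ways that touch these genes. The lowest nonzero values rise in steps of 1 read, and by these steps 1 read was worth about 3.0 to 3.3 times more FPKM in replicate 2 than in replicate 1 at all time points but 240 min, where the factor was 5.43. The 240 min replicates stood apart. Deviations from the time point means, over all tested genes, correlated with r of 0.760 to 0.841 between same-numbered samples of the other time points, and with 0.334 to 0.412 where a 240 min sample was involved. Tests are therefore also given with the replicate number as a block (a term for the shared difference between replicates 1 and 2) where this changes the call, and those that turn on the 240 min samples are given without them. Where 1 sample is left out, its time point keeps a single sample, the spread comes from the other time points, and that sample is assumed to vary like them. The light response genes *vvd*, *al-1*, and *frq* together had 1877 and 1314 FPKM at 15 min, against 19.2 and 6.14 FPKM in the dark. Wherever a pair of values is given, that of replicate 1 comes before that of replicate 2.

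Transcripts of *sre* were highest after 15 min in light. In replicate 1 the dark sample had 10.4 FPKM, and the samples lit for 15, 60, 120, and 240 min had 55.1, 17.4, 18.1, and 12.9 FPKM. In replicate 2 the dark sample had 6.36 FPKM, and the lit samples, by time, had 38.9, 12.4, 11.9, and 4.05 FPKM. Both samples at 15, 60, and 120 min lay above both dark samples (as did 16.3%, 25.4%, and 22.7% of tested genes), while at 240 min 1 sample lay above both dark samples and the other below both. Set against its own replicate in the dark, *sre* had 5.29 and 6.11 times the dark level at 15 min, but 1.68 and 1.95 times at 60 min. Most of the difference seen at 15 min was thus absent from the separate 60 min cultures of both replicates.

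The rise of *sre* at 15 min passed the test, and its values at 60 and 120 min passed with the replicate block and not without it. The log2 fold change at 15 min over dark, on the scale log2(FPKM + 1), was 2.37 (SE 0.52, limma with Benjamini-Hochberg adjustment, adjusted p = 0.12), at a threshold of 0.2. Among the 7688 tested genes this was the 51st rise in order of size. At 60 and 120 min the values were 0.78 and 0.78 (SE 0.52; limma adjusted p = 0.65 for both), and with the block they passed (SE 0.28; limma adjusted p = 0.14 for both). At 240 min the value was -0.13 (limma adjusted p = 0.98). The 15 min call was lost when any 1 of the 8 samples from the dark, 15, 60, or 120 min was left out, with limma adjusted p up to 0.62 and log2 fold changes from 2.05 to 2.68. Without the 240 min samples it held, at a limma adjusted p of 0.011. Leaving out 240 min replicate 1 alone also brought the 60 and 120 min values just past the threshold (limma adjusted p of 0.197 and 0.198).

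**Figure D1:**
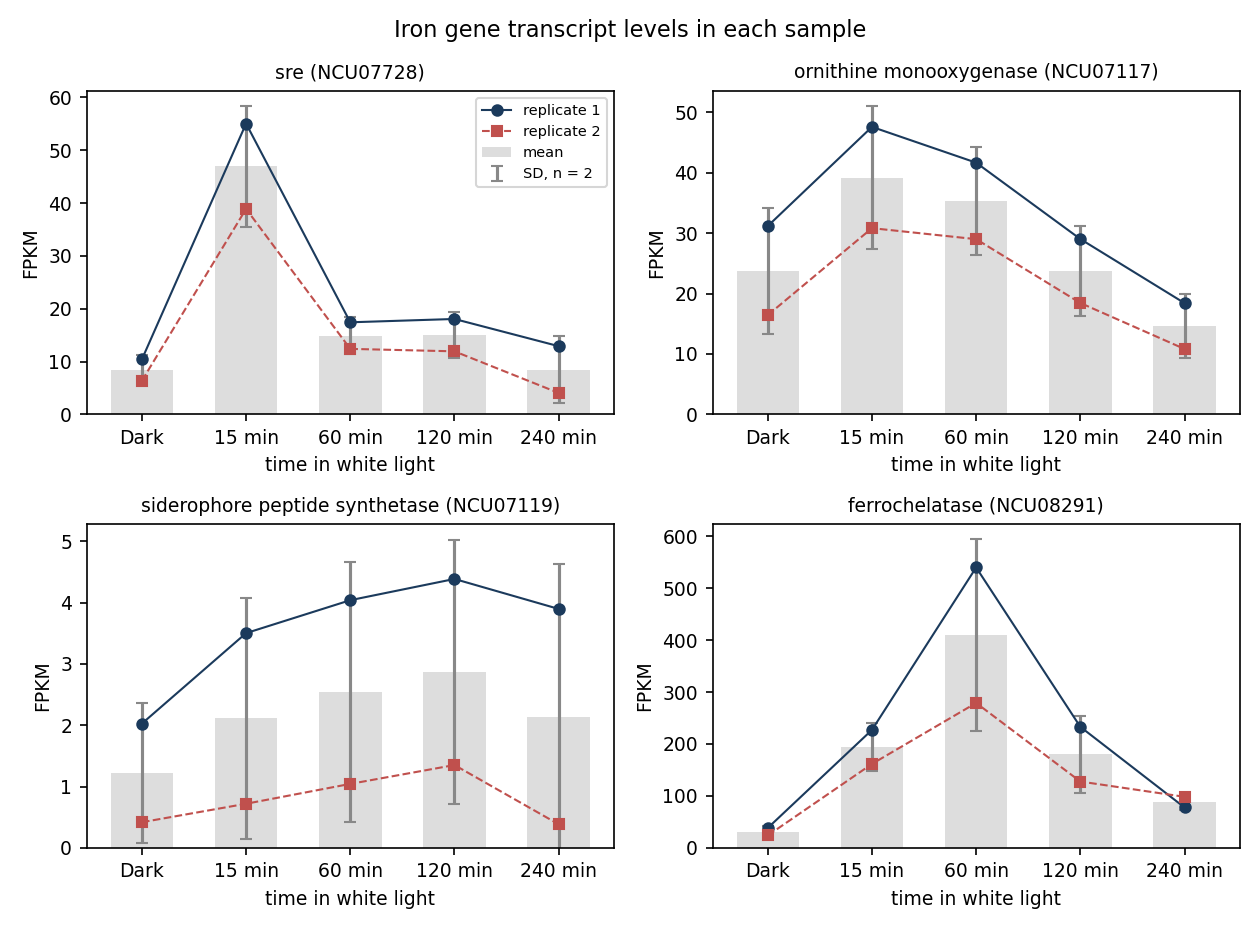
Transcript levels in FPKM (vertical axis, linear from 0) at each time in white light (horizontal axis) for the 4 genes, 1 panel each; points joined by lines are the replicates, bars the means, and error bars the SD of n = 2. *sre* peaks at 15 min at 55.1 and 38.9 FPKM, ferrochelatase at 60 min at 540 and 279 FPKM, and the peptide synthetase stays at or below 4.39 FPKM.

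Direct comparisons between light times described how short the *sre* peak was. At 60 min both samples were below both 15 min samples, as in 24.2% of tested genes, with a log2 difference of -1.59 for 60 over 15 min. Without the block this did not pass (SE 0.52, limma adjusted p = 0.52), and with it the difference passed (SE 0.28, limma adjusted p = 0.071). It also passed without the 240 min samples (limma adjusted p = 0.081). Between 120 and 60 min the level of *sre* moved by less than 0.01 on the log2 scale. At 240 min it was 0.90 lower than at 120 min (log2 difference -0.90), which passed with the block (limma adjusted p = 0.15, against 0.76 without it). The value rested on which 240 min sample was kept, at -1.64 without replicate 1 (limma adjusted p = 0.061) and -0.17 without replicate 2 (0.89), each with 1 sample at 240 min and the spread of the other times.

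The ornithine monooxygenase gene, NCU07117, which acts on ornithine at the start of siderophore synthesis, showed smaller differences and, within each replicate, ended below its dark level. Its level in the dark sample of replicate 1 was 31.2 FPKM, and its levels after 15, 60, 120, and 240 min of light were 47.6, 41.7, 29.0, and 18.4 FPKM. For replicate 2 the dark level was 16.4 FPKM and the levels in light, by time, were 30.8, 29.0, 18.4, and 10.8 FPKM. The light and dark samples overlapped at every time point. Within each replicate, however, the 15 and 60 min samples were above the dark sample and the 240 min sample below it, at 0.591 and 0.659 of the dark level in replicates 1 and 2.

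None of the differences of NCU07117 from the dark passed without the block. The log2 fold changes over dark for 15, 60, 120, and 240 min were 0.73, 0.60, 0.03, and -0.64 (SE 0.46 each; limma adjusted p of 0.62, 0.72, 1.00, and 0.68). With the block the SE was 0.18, and the values at 15 min (limma adjusted p = 0.063), 60 min (0.10), and 240 min (0.084) passed. The 15 and 60 min values also passed with the block when the 240 min samples were left out (limma adjusted p of 0.0012 and 0.0029). In that fit, added after seeing the data, 4694 and 5999 of the 7688 tested genes passed at these times. Of consecutive light times, 120 over 60 min (log2 difference -0.57) and 240 over 120 min (-0.67) also passed with the block, at limma adjusted p of 0.16 and 0.12, against 0.88 and 0.83 without it.

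The siderophore peptide synthetase gene, NCU07119, had the lowest level of the 4 genes in all 10 samples. In replicate 1 it measured 2.03 FPKM without light and 3.50, 4.04, 4.39, and 3.90 FPKM after 15, 60, 120, and 240 min of it. In replicate 2 it measured 0.418 FPKM without light and 0.719, 1.04, 1.35, and 0.384 FPKM after the same times. Every value of replicate 1 was thus above every value of replicate 2, whatever the light. Within each replicate the level was above the dark at 15, 60, and 120 min and highest at 120 min, where it reached 2.16 and 3.23 times the dark level. At 240 min it had 1.92 times the dark level in replicate 1 and 0.920 times in replicate 2.

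Without the block no difference of NCU07119 passed. The log2 fold changes over dark were 0.43, 0.63, 0.78, and 0.33, by time in light (SE 0.79 each; limma adjusted p between 0.81 and 0.95). The sign at 15, 60, and 240 min turned when certain single samples were left out, with lowest values of -0.27, -0.02, and -0.58. With the block the SE was 0.21 and the values at 60 min (limma adjusted p = 0.12) and 120 min (0.076) passed, while that at 15 min did not (0.26). When the 240 min samples were also left out, the block fit passed at 15, 60, and 120 min (limma adjusted p of 0.021, 0.0041, and 0.0016). In that fit 4694, 5999, and 5720 of the 7688 tested genes passed at these times. That fit was added after seeing the data. None of its differences between consecutive light times passed with or without the block, with log2 values of 0.21, 0.15, and -0.45 for NCU07119.

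**Figure D2:**
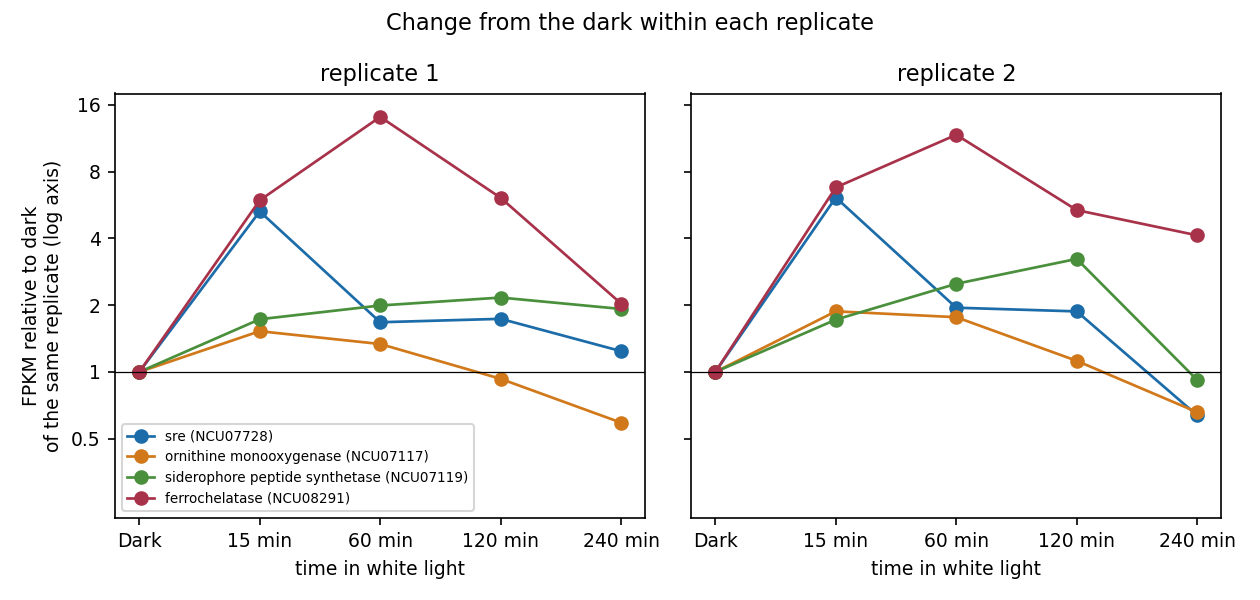
FPKM divided by that of the dark sample of the same replicate (vertical axis, log scale) at each time in white light (horizontal axis), with replicate 1 left and replicate 2 right; each line is 1 gene. Ferrochelatase is highest at 60 min (14.1 and 11.7 times the dark), *sre* at 15 min, the monooxygenase at 15 min, and the peptide synthetase at 120 min, in both replicates.

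The gap between the replicates was larger for NCU07119 than for the other 3 genes, and long genes shared a gap in this direction. The level in replicate 1 was 4.85 times that in replicate 2 in the dark, and the factors for the 4 light times in order were 4.87, 3.87, 3.25, and 10.1. With 0.1 FPKM added to each value, these ratios were above those of 95.2% to 99.4% of tested genes. Over all tested genes the median ratio of replicate 1 to 2 in the dark was 1.24. It was 0.889 for genes that span up to 1000 bases and 2.30 for the 47 genes that span over 8000 bases, by spans in the RefSeq annotation of assembly NC12, known for 95.6% of tested genes. At 240 min the same medians were 0.950 and 2.98. NCU07119 spans 16460 bases, against 3175 for *sre*, 2773 for NCU07117, and 2602 for NCU08291. Even so, its ratio was exceeded by 0 of these 47 long genes in the dark and at 15 and 60 min, and by 1 at 120 and at 240 min. What part RNA integrity, the isolation, or depth had in this was not tested.

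**Figure D3:**
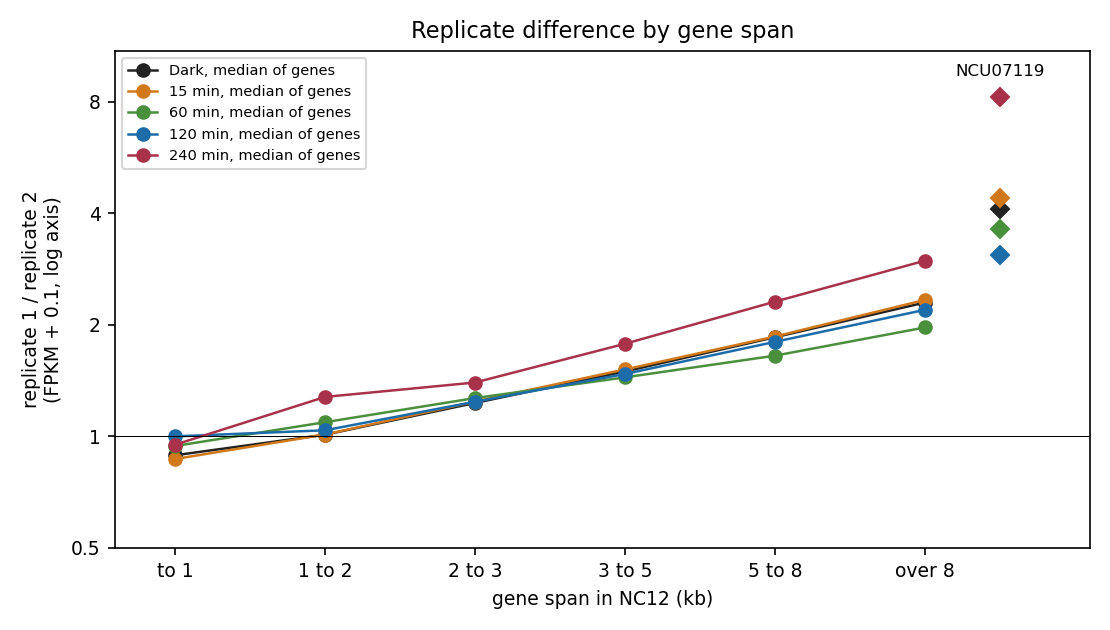
Ratio of replicate 1 to replicate 2 (vertical axis, FPKM + 0.1, log scale) by length of the gene in the NC12 annotation (horizontal axis, kb); circles are medians over tested genes at each time point, and diamonds are the siderophore peptide synthetase NCU07119. The medians grow with length at all 5 time points, in the dark from 0.889 for genes up to 1000 bases to 2.30 for those over 8000 bases, and the diamonds lie above the medians of the longest genes.

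Few reads lay behind the values of NCU07119 in replicate 2. The steps put an upper limit of about 72.4 reads on it in the dark and about 40.8 at 240 min, against about 1066 in the dark in replicate 1, with the whole span counted as transcript. In the NC12 annotation its span overlaps that of its neighbor NCU07120, which had 30.2 and 39.1 FPKM at 60 min against 15.1 and 13.4 FPKM in the dark. That difference of NCU07120 (log2 fold change 1.22) did not pass without the block (limma adjusted p = 0.46) or with it (0.23). The study's cDNA and library methods describe no step that keeps the strand, so reads from the overlap cannot be assigned to 1 of these genes.

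The ferrochelatase gene NCU08291, for the last step of heme synthesis, had the highest level of the 4 genes in all 10 samples and the largest differences from the dark at every light time. The dark sample of replicate 1 had 38.2 FPKM, and after 15, 60, 120, and 240 min of light there were 227, 540, 233, and 77.7 FPKM. The dark sample of replicate 2 had 23.8 FPKM, followed in light by 162, 279, 128, and 98.3 FPKM. At each of the 4 light times both samples were above both dark samples. The same held for 16.3%, 25.4%, 22.7%, and 7.48% of tested genes at 15, 60, 120, and 240 min. The level peaked at 60 min in each replicate, at 14.1 and 11.7 times the dark, with a mean of 409 ± 184 FPKM against 31.0 ± 10.2 FPKM in the dark (SD, n = 2 each), and by 240 min 2.03 and 4.13 times the dark level remained. By FPKM it ranked 261st and 393rd of 9728 genes at 60 min, against 1534th and 1943rd in the dark.

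The rise of ferrochelatase passed at 15, 60, and 120 min. Its log2 fold changes over dark were 2.63 at 15 min (limma adjusted p = 0.074), 3.64 at 60 min (limma adjusted p = 0.033), and 2.48 at 120 min (limma adjusted p = 0.087), each with an SE of 0.48. At 240 min the value was 1.50 and did not pass (limma adjusted p = 0.25), while with the block it did (limma adjusted p = 0.050). Among rises of all tested genes these were the 43rd, 36th, 66th, and 46th in order of size at 15, 60, 120, and 240 min.

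Leaving out single samples removed some of these calls, and in none did the direction turn. The 60 min call was lost without dark replicate 1 (limma adjusted p = 0.26), dark replicate 2 (0.35), or 60 min replicate 1 (0.21). The 15 min call was lost without either sample of the dark, 15 min, or 60 min (limma adjusted p up to 0.49), and the 120 min call without any 1 of the 8 samples other than those at 240 min (up to 0.52). With both 240 min samples left out, limma adjusted p at 15, 60, and 120 min was 0.017, 0.00665, and 0.020. With 240 min replicate 1 or 2 left out the 240 min value was 1.67 or 1.34 (limma adjusted p of 0.10 and 0.19), each with 1 sample at 240 min, so that the spread between the 240 min replicates no longer entered the fit.

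**Figure D4:**
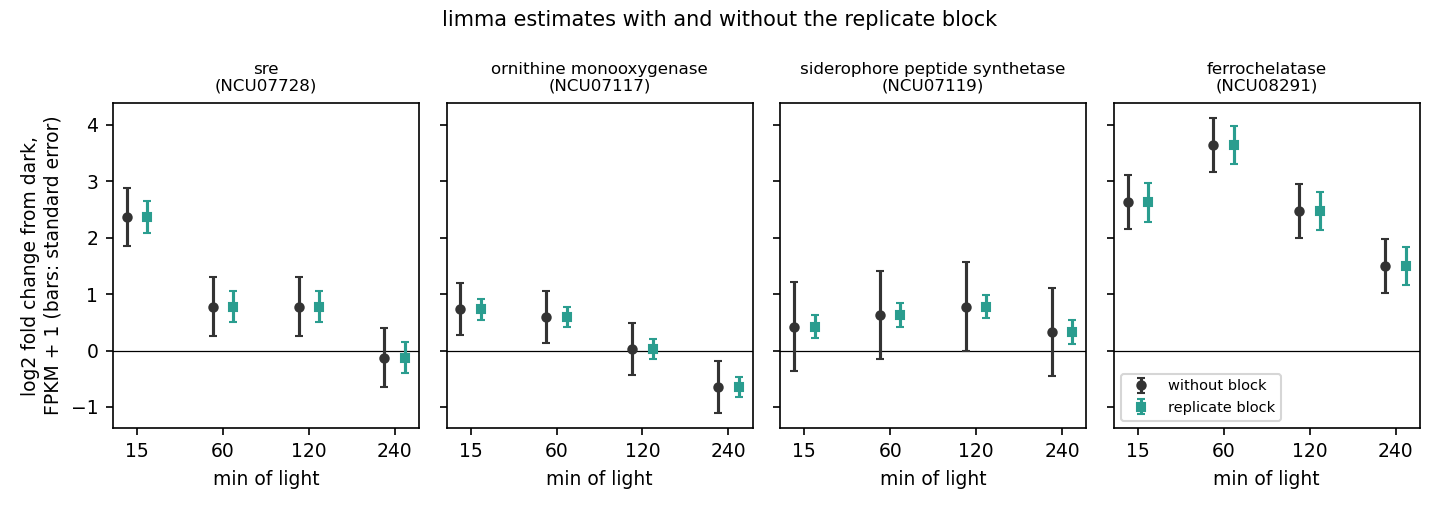
limma log2 fold change from the dark on the scale log2(FPKM + 1) (vertical axis) at 15, 60, 120, and 240 min of light (horizontal axis), 1 panel for each gene; circles are the fit without and squares the fit with the replicate block, and bars are standard errors. The estimates are equal in both fits, and the block narrows the errors, for the peptide synthetase from 0.79 to 0.21.

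The ferrochelatase peak was also bounded by differences between light times. Both samples at 60 min were above both at 15 min (log2 difference 1.02), both at 120 min were below both at 60 min (-1.17), and both at 240 min were below both at 120 min (-0.97), as in 22.8%, 19.9%, and 15.2% of tested genes. These 3 differences passed with the block, at limma adjusted p of 0.17, 0.14, and 0.19, and not without it (0.69, 0.62, and 0.71), although 120 over 60 min also passed without 240 min replicate 1 (0.17). Without the block 0 of the 7688 genes passed limma in the 3 consecutive comparisons, where 707, 207, and 871 genes had an unadjusted p under 0.05. With the block 18.7% passed for 60 over 15 min, 8.51% for 120 over 60 min, and 19.9% for 240 over 120 min, so that 2, 2, and 3 of the 4 iron genes stood beside a wide background.

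Together, 2 of the 4 genes (*sre* and ferrochelatase) passed as higher at 15 min, where 1.34% of all tested genes did. The study had already placed both genes in its clusters of light-regulated genes from these samples, so this count is not independent evidence. Ferrochelatase was the 1 gene of the 4 that passed at 60 min, where 2.68% of tested genes passed as higher, and at 120 min, where 1.37% did. At 240 min 0 of the 4 passed without the block, where 1.38% of tested genes passed in either direction in limma and 548 genes, ferrochelatase among them, had an unadjusted p under 0.05. With the block the counts were 3 higher at 15 min, 4 higher at 60 min, 3 higher at 120 min, and 1 higher and 1 lower at 240 min. Background shares in that fit were 6.87%, 14.4%, and 11.6% higher at 15, 60, and 120 min, and 5.11% higher and 15% lower at 240 min.

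The direction was shared by more of the 4 genes than the calls were. All 4 were above the dark within both replicates at 15 and at 60 min, as were 35.1% and 38.2% of tested genes. At 120 min 3 of the 4 were (all but NCU07117), beside 39.3% of tested genes. At 240 min ferrochelatase was above the dark in both replicates, as were 15.2% of tested genes, and NCU07117 below it, as were 32%. At 240 min all 4 were below their level at 120 min within both replicates, as were 30% of tested genes.

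The order of levels among the 4 genes, which FPKM sets per transcript length, changed in 1 place. Ferrochelatase was first and NCU07119 last in every sample. *sre* stood above NCU07117 at 15 min, by 1.16 times in replicate 1 and 1.26 times in replicate 2, and below it in the dark and at 60, 120, and 240 min. Neighbors in this order overlapped between replicates for ferrochelatase and NCU07117 in the dark and for *sre* and NCU07117 at 15 and 240 min. Over the 10 samples, which share the replicate difference, *sre* and NCU07117 had the highest correlation of log2(FPKM + 1) among pairs of the 4 genes (Pearson r = 0.82), and the other 5 pairs had r of 0.46 to 0.60. With each replicate centered on its own mean, *sre* and NCU07117 had r of 0.79. The other 5 pairs then ran from 0.25 (NCU07117 and NCU07119) to 0.69 (NCU07119 and ferrochelatase).

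The monooxygenase and the peptide synthetase are next to each other on chromosome VI in the NC12 annotation, with no gene between them in the table used. The gene on the far side of the monooxygenase, NCU07116, was under 1 FPKM in every sample and was not tested; it measured 0.890 and 0.490 FPKM at 120 min, against 0.198 and 0.155 FPKM in the dark. *sre* and ferrochelatase are on chromosome IV, not next to each other. The nearest neighbors of *sre* (NCU07730 and NCU07727) and of ferrochelatase (NCU08292 and *mus-51*, NCU08290, a gene of DNA end joining) did not pass against the dark at any time without the block, while with it *mus-51* was lower at 60, 120, and 240 min, NCU08292 higher at 15 and 60 min, and NCU07727 lower at 240 min. Next to ferrochelatase, which was 3.64 higher on the log2 scale at 60 min over dark, *mus-51* had a value of -0.64 and NCU08292 of 0.43. Next to *sre* at 15 min over dark (2.37), NCU07730 had 0.34 and NCU07727 had 0.23.

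Other genes of iron and heme biology were taken from annotation as 4 lists of 16 genes, of which 15 were tested; the zinc/iron transporter NCU02879 was at or below 0.199 FPKM in every sample and was not. Without the block 2 of the 15 passed, both as higher at 60 min, where 2.68% of tested genes did. With the block 9 of the 15 passed at 1 or more light times, as did 52.8% of all tested genes, which is near the share in the lists. With both 240 min samples left out and no block, 6 of the 15 passed at 15 min and 5 each at 60 and 120 min, beside 15.9%, 34.8%, and 32.2% of tested genes. Below, "with the block alone" compares the fits of all 10 samples. Both NCU06062 and NCU08167 were annotated here only from the study's tables of light-regulated genes. Their direction, the counts of list genes that include them, and the siderophore list medians are therefore not independent evidence. NCU08167 is 1 of the 2 genes that passed without the block. The list medians below are set beside medians over all tested genes of -0.05, -0.09, -0.07, and -0.14 for the 4 light times in order.

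Among the 4 other heme synthesis genes, uroporphyrinogen decarboxylase passed and delta-aminolevulinic acid dehydratase stayed near its dark level. Uroporphyrinogen decarboxylase, NCU02771, which removes carboxyl groups from the porphyrin ring's side chains, had 294 and 368 FPKM at 60 min, against 83.3 and 113 FPKM in the dark (log2 fold change 1.75, SE 0.47, limma adjusted p = 0.18). This call was lost without any 1 of the 8 samples other than those at 240 min (limma adjusted p up to 0.85). Uroporphyrinogen-III synthase, NCU02395, which closes the ring, had 206 and 175 FPKM at 60 min against 48.9 and 58.4 FPKM in the dark, and it passed with the block alone (1.81; limma adjusted p = 0.11, against 0.28 without). Left without the 240 min samples, and with no block, it passed at a limma adjusted p of 0.0035. With the block alone it also passed at 120 min (1.85, limma adjusted p = 0.10), and the decarboxylase at 15 min (0.85, limma adjusted p = 0.089).

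Coproporphyrinogen III oxidase, NCU01546, which acts on the product of the decarboxylase, had 3564 and 2971 FPKM at 60 min against 1458 and 1550 FPKM in the dark. It also passed with the block alone (1.11; limma adjusted p = 0.13, against 0.40), and without the 240 min samples at 0.023. With the block it passed at 120 min too (0.92, limma adjusted p = 0.19). The dehydratase NCU01013, an early enzyme of the route, had 13.3 and 11.8 FPKM at 60 min against 12.2 and 11.8 FPKM in the dark (log2 fold change 0.05). The median log2 fold change of these 4 genes by time was 0.42, 1.43, 0.73, and 0.03. None of the 4 had a log2 fold change at 60 min as large as the 3.64 of ferrochelatase; this comparison between genes was not tested.

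**Figure D5:**
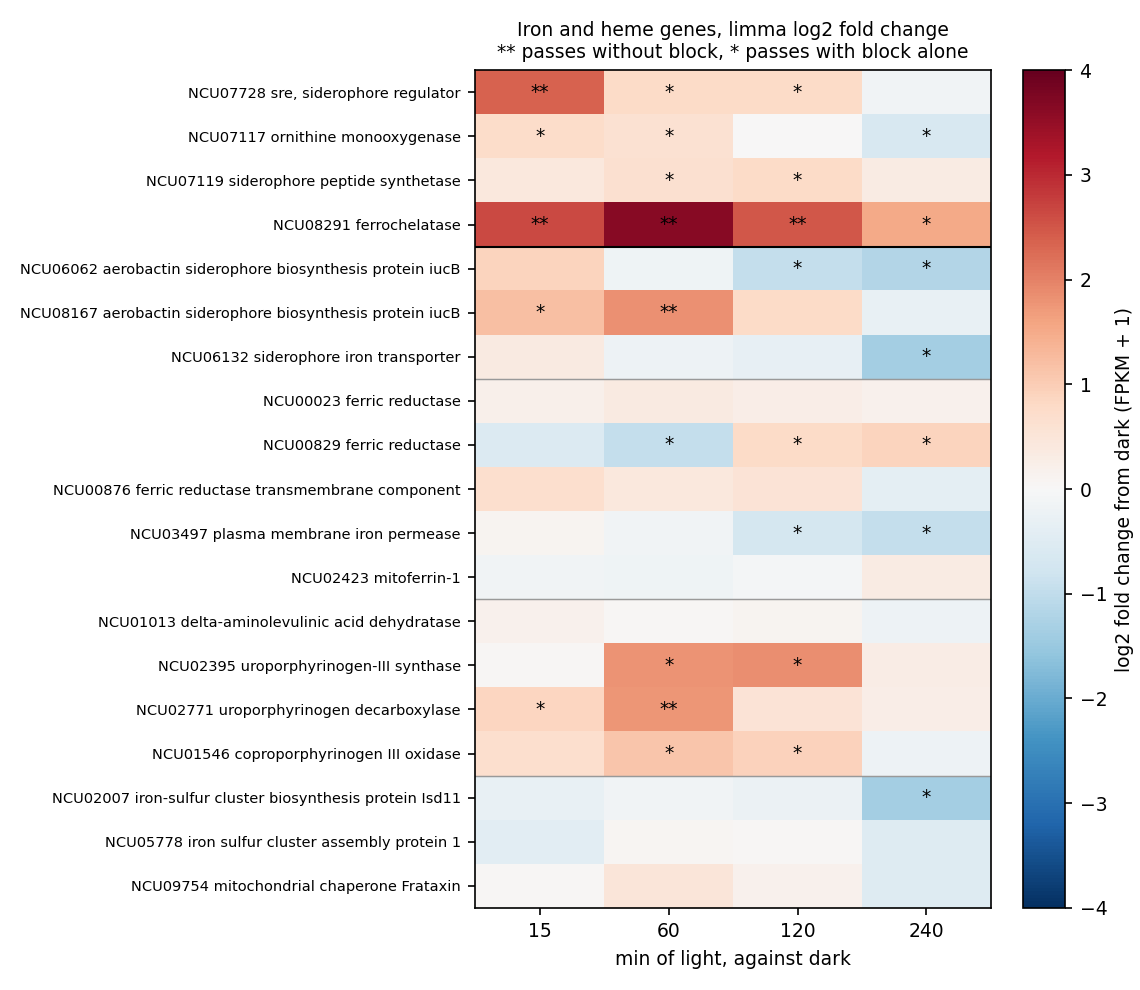
limma log2 fold change from the dark on the scale log2(FPKM + 1) (color, red higher and blue lower in light) at 15, 60, 120, and 240 min (columns) for the 4 iron genes and, below the black line, the 15 tested genes of the siderophore, iron uptake, heme, and iron-sulfur lists (rows). Double stars mark values past an adjusted p of 0.2 without the block and 1 star those past it with the block alone; ferrochelatase reaches 3.64 at 60 min, and 3 of the 4 heme genes below it are red there.

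In the siderophore list, NCU08167, annotated by likeness to the bacterial acetyltransferase IucB, passed as higher at 60 min, with 94.3 and 63.2 FPKM against 24.4 and 18.4 FPKM in the dark (log2 fold change 1.82, SE 0.47, limma adjusted p = 0.17). The call was lost without any 1 of the 8 samples other than those at 240 min (limma adjusted p up to 0.75). At 15 min the gene was higher with the block alone (1.22, limma adjusted p = 0.14). The other gene with this annotation, NCU06062, was lower with the block alone at 120 min (-0.95, limma adjusted p = 0.17; 19.5% of tested genes were lower there in that fit) and at 240 min (-1.17, 0.11), where its samples had 0.596 and 4.27 FPKM against 4.56 and 6.64 FPKM in the dark. The siderophore iron transporter NCU06132, which carries loaded siderophores into the cell, had 33.2 and 35.1 FPKM at 240 min against 124 and 65.3 FPKM in the dark (-1.37; limma adjusted p = 0.29, and 0.041 with the block). With 1 sample at 240 min and no block, NCU06062 was at -2.03 without replicate 2 (limma adjusted p = 0.020) and at -0.31 without replicate 1 (0.64). NCU06132 was at -1.33 without replicate 1 and -1.41 without replicate 2 (limma adjusted p of 0.19 and 0.18). The list median by time was 0.88, -0.19, -0.33, and -1.17.

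The lists of iron uptake and iron-sulfur cluster genes had no gene that passed without the block. The plasma membrane iron permease NCU03497 had 165 and 87.0 FPKM at 240 min against 284 and 191 FPKM in the dark, and was lower with the block alone (-0.95, limma adjusted p = 0.086), as at 120 min (-0.71, 0.17). The ferric reductase NCU00829, which would reduce ferric iron for uptake, was lower at 60 min (-0.96, limma adjusted p = 0.11), where 22.1% of tested genes were lower in that fit, and higher at 120 min (0.76, 0.19) and 240 min (0.90, 0.13), each with the block alone. The gene for Isd11, NCU02007, of the iron-sulfur cluster list, was lower at 240 min with the block alone (-1.37, limma adjusted p = 0.081). The 240 min values of these 3 genes rested on which of the 240 min samples was kept: without replicate 1 the log2 fold changes were -1.41 (NCU03497), 1.40 (NCU00829), and -2.40 (NCU02007), with limma adjusted p of 0.041, 0.014, and 0.041. Without replicate 2 they were -0.50, 0.40, and -0.33, with limma adjusted p of 0.41, 0.33, and 0.78, and in both cases the spread came from the other time points. Medians at 240 min were 0.18 for the 5 tested uptake and carrier genes and -0.51 for the 3 iron-sulfur genes.

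Genes most like each of the 4 in profile were sought among 4313 tested genes with a mean of at least 10 FPKM at some time point, by Pearson r of log2(FPKM + 1) over the 10 samples. For *sre* they were *fl* (NCU08726, r = 0.98), which encodes a regulator of conidiation, NCU06125 (0.98), and NCU00687 (0.97). *fl* had 11.7 and 8.67 FPKM at 15 min against 1.86 and 1.63 FPKM in the dark. For ferrochelatase they were NCU09041 (0.96), NCU09305 (0.95), and NCU10762 (0.95), and for NCU07117 they were NCU01924 (0.99), NCU09344 (0.98), and NCU07416 (0.97). For NCU07119, whose profile is set largely by the replicate difference, they were NCU11187 (0.99), NCU08273 (0.98), and NCU10715 (0.98).

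Markers of conidia, the asexual spores, moved with the times at which ferrochelatase was high. The study describes the markers *con-6* and *con-10* as known to respond to light, so a rise in them need not mean more conidia. The summed level of *con-6*, *con-10*, and *eas* in replicate 1 was 86.1 FPKM in the dark and 705, 3923, 2494, and 190 FPKM after 15, 60, 120, and 240 min of light. In replicate 2 it was 53.2 FPKM in the dark and 971, 4390, 1654, and 94.6 FPKM in light. At 60 min *con-6* made up most of the sum, with 3407.5 and 3455.7 FPKM, while *eas* had 3.24 and 5.31 times its dark level. Each of the 3 was higher at 60 min than in the dark in both replicates. Their part in the changes of the iron genes was not tested. In bulk mycelium a change in the share of a cell type and a change of RNA per cell cannot be told apart.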

How the data were processed

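RNA-seq of 10 mycelial samples was used, 2 for each of 5 time points, with group and replicate taken from the sample titles. Reads were processed by the authors with CASAVA 1.8.2, aligned with TopHat 2.0.5 to *N. crassa* assembly 10, and turned into FPKM with Cuffdiff, with corrections for sequence bias and for multiply mapping reads. The deposited FPKM values, 1 per gene and sample, were used as they are. Bias correction and weighting shift low values and reads from similar genes. Read counts were not used here, and precision is given by the SD of n = 2 or the standard error. Between 721 and 915 genes were listed at 0 per sample, and 0 pairs of samples held identical values.

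The 4 genes and the lists were chosen with earlier results of these data known. Genes with a mean FPKM above 1 at any time point (7688) were tested on log2(FPKM + 1) with limma 3.58.1 in R 4.3.3 (1 mean per time point, eBayes with trend, 5 residual and 3.50 prior degrees of freedom, 4 and 2.48 with the block). p-values were adjusted by Benjamini-Hochberg over the 4 comparisons with the dark, and separately over the 3 between consecutive light times. The threshold, 0.2, is the q value used by the authors. A permutation test of 2 against 2 samples cannot go below p = 0.33. Same-numbered samples share the RNA isolation given in the sample records, and their deviations correlated with r of 0.334 to 0.841, so the replicate number was taken to pair them. Genes named are the 4, their neighbors in NC12 (names, order, and spans only, since the authors used another assembly), list genes past the threshold, and the 3 most similar genes for each. List annotation came from the product names in the study's supplementary tables, held in part. Alternatives were the block, a pseudocount of 0.1, no filter, quantile normalization, median scaling, the 240 min samples left out, and each sample left out. The limma scripts were tested on simulated data. Python 3.11.15, pandas 2.3.3, numpy 2.4.6, and matplotlib 3.10.9 were used.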

Additional observations from a re-analysis of the deposited data

Results flagged for a closer look

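With 2 samples per time point no single sample could be singled out, and the results listed are those in which a gene's difference from the dark was not the same at consecutive light times, by a test of that difference with the replicate block. For *sre* these were 60 over 15 min (log2 difference -1.59, SE 0.28, limma adjusted p = 0.071) and 240 over 120 min (-0.90, SE 0.28, limma adjusted p = 0.15). Ferrochelatase was listed for 60 over 15 min (1.02, SE 0.34, limma adjusted p = 0.17), 120 over 60 min (-1.17, SE 0.34, limma adjusted p = 0.14), and 240 over 120 min (-0.97, SE 0.34, limma adjusted p = 0.19). The ornithine monooxygenase NCU07117 was listed for 120 over 60 min (-0.57, SE 0.18, limma adjusted p = 0.16) and 240 over 120 min (-0.67, SE 0.18, limma adjusted p = 0.12). None of these 7 differences passed without the block, where limma adjusted p was between 0.52 and 0.88. With the block, 18.7%, 8.51%, and 19.9% of tested genes passed for 60 over 15, 120 over 60, and 240 over 120 min.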

How the results depend on the processing

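Of the 16 differences of the 4 genes from the dark, 0 changed sign when the pseudocount, filter, scaling, block, or use of the 240 min samples was changed; certain single samples turned signs. With the replicate block, which uses the pairing by number, 4, 3, and 2 of the 4 genes passed at 60, 120, and 240 min and 2, 2, and 3 between consecutive times; 2, 5, 5, and 5 list genes and 1168, 2806, 2395, and 1548 tested genes passed at 15, 60, 120, and 240 min, against 137, 479, 381, and 106 without it (0, 2, 0, and 0 list genes). Without the filter 1 list gene passed at 60 min and 169 genes at 240 min. Quantile normalization gave 0 list genes at 60 min, 1 iron gene at 240 min (ferrochelatase, limma adjusted p = 0.16), and 209 genes at 240 min. Median scaling, which moved the median over all genes from -0.09, -0.07, and -0.14 to 0.09, 0.03, and -0.01 at 60, 120, and 240 min, gave 2 iron genes at 60 min and 1 at 240 min, 1 list gene at 120 and 240 min each, and 272, 949, 764, and 230 genes. Without the 240 min samples 6, 5, and 5 list genes and 1223, 2676, and 2478 genes passed at 15, 60, and 120 min, and 1 iron gene for 60 over 15 min. The block without these samples, added after seeing the data, gave 4, 4, and 3 iron genes, 11, 10, and 12 list genes, 4694, 5999, and 5720 genes, and 2 and 2 iron genes for 60 over 15 and 120 over 60 min. With single samples left out, where the lone sample of a time point is assumed to vary like the others, the iron genes passing numbered 0 to 2 at 15, 60, and 120 min, 0 to 1 at 240 min and between consecutive times, list genes 0 to 6, 0 to 5, 0 to 5, and 0 to 8, and all genes 7 to 1298, 8 to 2781, 2 to 2558, and 0 to 2789. Uroporphyrinogen-III synthase NCU02395 at 240 min had 0.28, with -0.83 without 240 min replicate 1 (reversed) and 1.39 without replicate 2. The cause of these shifts was not tested. NCU07119 rested on at most about 40.8 to 211 reads per sample in replicate 2.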
